A study of Mus musculus with 47 samples.

Results

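Gm15446, Zfp932, Nnt and Wdfy1 are 4 mouse genes that were looked at as candidates for DNA variants carried by one mouse colony and not by the other. They were selected by name, because earlier results of these data had shown a difference between genotypes for some of them, and their rows were taken by Ensembl identifier: Gm15446 (ENSMUSG00000090015), Zfp932 (ENSMUSG00000066613), Nnt (ENSMUSG00000025453) and Wdfy1 (ENSMUSG00000073643). All 4 were found among the 33139 rows of the brainstem table and the 31751 rows of the hippocampus table, and 3 of the 4 passed the filter on low counts in each region. Nnt did not pass. Because the genotype difference chose the genes, their transgenic against wildtype values are given as a description with no test.

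RNA was sequenced from the brainstem (medulla) and the hippocampus of male mice killed at 12 months of age, with 47 libraries in all. Transgenic (TG) mice carry a human transgene under the Thy1 promoter, which drives it in neurons of the central nervous system, and were kept as a homozygous line on a C57BL/6 background. Wildtype (WT) mice descend from the same outcross and were bred alongside as a separate colony, so that genotype and colony cannot be told apart in any comparison of TG with WT. From 5 weeks of age the mice of each genotype received a standard diet (SD) or a high-fat diet (HFD), giving the groups WT SD, WT HFD, TG SD and TG HFD with 6 libraries each per region, except 5 for WT SD in brainstem. Littermates were spread over both diets.

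The libraries held 10020784 to 15078812 counts in brainstem and 11945971 to 17328447 in hippocampus. Slc6a5, the neuronal glycine transporter of the hindbrain, was at 250 to 470 CPM (counts per 1000000 counts of the library) in brainstem and 0 to 0.501 in hippocampus, and Neurod6, a factor of forebrain pyramidal neurons, at 3.08 to 6.09 and 179 to 250. Ttr, a marker of the choroid plexus, reached between 6.93 and 2870 CPM in brainstem libraries and 12.6 to 271 in those of hippocampus, and its part in the results was not tested. Levels below are CPM after scaling of library sizes by the trimmed mean of M values (TMM), and log2 fold changes come from the edgeR model described under the processing.

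Gm15446 and Zfp932 encode KRAB zinc finger proteins, DNA-binding repressors that recruit TRIM28 and, through it, the histone methyltransferase SETDB1 to endogenous retroviruses and other repeats. The mouse genome holds many such genes in clusters of near-copies, and the number and sequence of the copies differ between strains. Nnt encodes the nicotinamide nucleotide transhydrogenase of the inner mitochondrial membrane, which uses the proton gradient to make NADPH, and mice of the substrain C57BL/6J carry a deletion inside the gene that other C57BL/6 substrains lack. Wdfy1 encodes a protein with a FYVE domain and WD repeats that sits on early endosomes and takes part in Toll-like receptor signalling.

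Gm15446 and Zfp932 are neighbours on chromosome 5 and so much alike that short reads separate them only in part. In the GENCODE M21 annotation, the coding part of Gm15446 (1662 bases) and that of Zfp932 (1581 bases) aligned over 1578 bases with 1 gap and 23 differing bases, an identity of 98.5%. The longest run of identical bases was 195. Of 1430 aligned windows of 75 bases, the read length, 523 (36.6%) were identical and none differed at more than 3 positions. Over whole transcripts, 833 of the 3684 windows of Gm15446 (22.6%) also occurred in Zfp932. The counts of the pair therefore rest on how the counting treated reads that fit both genes, which the sources used here do not state. The first identical window lies at coding bases 64 to 138 of Gm15446 and 67 to 141 of Zfp932 and is shown because reads from it cannot be assigned to either gene:
Gm15446: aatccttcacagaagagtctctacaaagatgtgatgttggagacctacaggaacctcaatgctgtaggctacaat
Zfp932: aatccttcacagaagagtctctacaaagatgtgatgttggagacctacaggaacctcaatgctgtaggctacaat
The window with the most differences, at coding bases 1 to 75 of Gm15446 and 4 to 78 of Zfp932, holds 3 of them, here in capitals:
Gm15446: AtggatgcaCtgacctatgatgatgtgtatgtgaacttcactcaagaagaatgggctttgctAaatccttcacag
Zfp932: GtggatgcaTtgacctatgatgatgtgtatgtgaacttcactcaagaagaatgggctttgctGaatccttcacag

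The sequences in front of the starts of the pair are shown because the levels of both genes moved together. They are the 250 bases before the start in RefSeq's annotation of GRCm38.p6, plus strand, at chr5:109933313-109933562 for Gm15446 and chr5:109996260-109996509 for the first of 2 starts of Zfp932, with CG dinucleotides in capitals:
Gm15446: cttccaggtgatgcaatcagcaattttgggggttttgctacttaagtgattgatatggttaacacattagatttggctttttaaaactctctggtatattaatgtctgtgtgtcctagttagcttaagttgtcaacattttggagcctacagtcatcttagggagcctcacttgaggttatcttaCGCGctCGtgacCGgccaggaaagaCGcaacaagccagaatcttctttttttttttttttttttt
Zfp932: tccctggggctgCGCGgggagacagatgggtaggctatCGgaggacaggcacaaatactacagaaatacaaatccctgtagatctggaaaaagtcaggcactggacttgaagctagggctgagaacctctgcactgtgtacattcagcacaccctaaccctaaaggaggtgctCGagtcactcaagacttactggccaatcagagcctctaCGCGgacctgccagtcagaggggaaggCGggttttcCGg
CG reads the same on both strands and was the only motif searched. The Gm15446 stretch held 5 and that of Zfp932 held 8, and 55.6% and 43% of the 32851 promoters in the table held at least as many. Their G and C content was 38.8% and 54.4%.

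Gm15446 was 2.62 to 3.42 times as high in TG as in WT over both regions and diets, and WT libraries were spread over a wider range than TG libraries. In brainstem WT SD, Gm15446 was at 18.4, 8.80, 10.8, 7.07 and 10.1 CPM. In brainstem WT HFD the 6 libraries ran from 6.58 to 18.6 CPM with a median of 7.95. TG SD libraries of brainstem ran from 29.6 to 38.1 CPM (median 33.1) and TG HFD libraries from 25.5 to 32.3 (median 28.3). No WT library of brainstem reached the lowest TG library, and the replicates numbered 1 of both WT groups, at 18.4 and 18.6 CPM, stood above the other 9 WT libraries, of which the highest was at 10.8. In these pieces of whole tissue, less RNA per cell and fewer cells with it cannot be told apart.

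In hippocampus, WT SD libraries ran from 4.69 to 15.6 CPM (median 6.99) and WT HFD libraries from 5.91 to 24.3 (median 6.78). TG SD libraries ran from 24.2 to 29.6 CPM (median 26.0) and TG HFD libraries from 23.7 to 28.0 (median 24.5). Here 1 WT library, WT HFD replicate 6 at 24.3 CPM, lay inside the TG range, and WT SD replicate 3 at 15.6 CPM lay between the ranges, while the other 10 WT libraries were at or below 9.46.

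**Figure D1:**
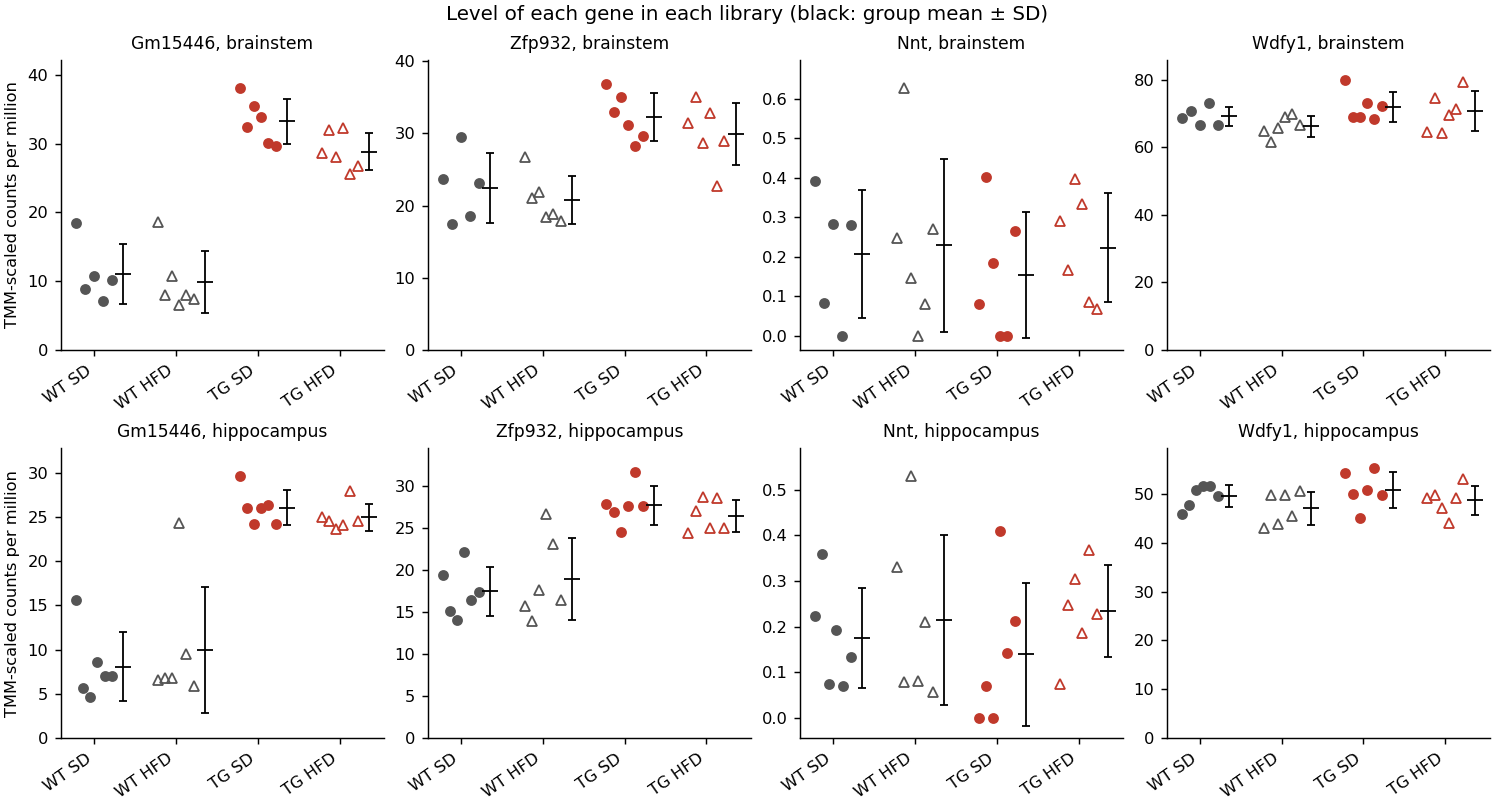
Level of Gm15446, Zfp932, Nnt and Wdfy1 (TMM-scaled CPM, vertical axis) in each library, by group, in brainstem (top) and hippocampus (bottom). Grey marks are WT and red marks TG, filled circles SD and open triangles HFD, and black bars the group mean ± SD; in hippocampus 1 WT HFD mark for Gm15446, at 24.3, stands among the TG marks.

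The fitted log2 fold changes of Gm15446, TG over WT, were 1.58 (SE 0.172) on SD and 1.77 (SE 0.213) on HFD in brainstem, and 1.70 (SE 0.228) and 1.39 (SE 0.285) in hippocampus. The last value moved most when single libraries were left out, to 1.91 without WT HFD replicate 6 and to 0.98 without WT HFD replicate 8. Surrogate variables were estimated anew in each such fit, so these shifts are not those of the library alone. With 0 surrogate variables and all libraries the value was 1.34. Over both diets, the coefficient of variation (CV) of Gm15446 in brainstem was 40.9% among 11 WT libraries and 11.9% among 12 TG libraries. In hippocampus it was 61.8% among 12 WT and 7.05% among 12 TG libraries. The ratio of the WT to the TG CV was 3.44 in brainstem, where 0.045% of all tested genes had a ratio as large, and 8.77 in hippocampus, where 0.00753% did. Both shares include Gm15446 itself. Because earlier results of these data chose the gene, the shares are a description and not a test. Counting error is larger at the lower WT counts, and its part in the ratio was not tested. Over all tested genes, the median ratio was 0.984 in brainstem and 1.0 in hippocampus.

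Zfp932 was higher in TG than in WT by 1.37 to 1.49 times, with overlap between genotypes. In brainstem WT SD it was at 23.7, 17.4, 29.5, 18.5 and 23.1 CPM, and in WT HFD from 17.8 to 26.7 (median 19.9). TG SD ran from 28.2 to 36.9 CPM (median 32.0) and TG HFD from 22.7 to 35 (median 30.2). In brainstem, 4 WT libraries lay above the lowest TG library, and WT SD replicate 6, at 29.5 CPM, was the highest of them.

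In hippocampus, Zfp932 ran from 14.1 to 22.2 CPM in WT SD (median 16.9) and from 13.9 to 26.7 in WT HFD (median 17.1), against 24.6 to 31.7 in TG SD (median 27.7) and 24.4 to 28.7 in TG HFD (median 26.0). The WT library inside the TG range was again WT HFD replicate 6. The log2 fold changes, TG over WT, were 0.45 (SE 0.0811) and 0.57 (SE 0.101) on SD and HFD in brainstem, and 0.57 (SE 0.096) and 0.46 (SE 0.126) in hippocampus. The CV of Zfp932 was 18.2% in WT and 12.3% in TG brainstem, and 21.8% and 7.86% in hippocampus.

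Per kilobase of exon, which allows levels to be set beside each other, WT libraries had a median of 2.33 CPM of Gm15446 and 6.42 of Zfp932 in brainstem, and TG libraries 8.19 and 9.55. In hippocampus the medians were 1.82 and 5.18 in WT, and 6.56 and 8.34 in TG. Zfp932 was thus the higher of the pair in WT, and the distance between them was smaller in TG.

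Since reads may be split between the pair, their counts were also added up. Together they ran from 25.0 to 45.3 CPM in WT and from 48.3 to 75.1 in TG brainstem, without overlap. In hippocampus they ran from 18.8 to 51.1 CPM in WT and from 48.8 to 58.1 in TG, with WT HFD replicate 6 as the 1 library that overlapped. The genotypes thus differed in the summed counts too.

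The share of the pair's counts that was assigned to Gm15446 separated WT libraries into a larger and a smaller set. In TG it ran from 47.7% to 52.9% in brainstem and from 45.2% to 51.5% in hippocampus. In WT brainstem, 9 libraries ran from 26.3% to 33.5%, and the other 2 were WT HFD replicate 1 at 41.1% (95% Wilson interval 37.1% to 45.3%, of 550 counts) and WT SD replicate 1 at 43.7% (39.1% to 48.4%, of 428 counts). In WT hippocampus, 10 libraries ran from 25.0% to 32.7%, and the other 2 were WT SD replicate 3 at 44.7% (40.2% to 49.2%, of 470 counts) and WT HFD replicate 6 at 47.7% (43.8% to 51.5%, of 640 counts). The lower bounds of the last 2 intervals lay above the shares of the other 10 WT hippocampus libraries. In brainstem, the interval of WT HFD replicate 1 overlapped those of WT SD replicate 4 (28.6% to 38.9%) and WT HFD replicate 3 (28.5% to 37.2%). These intervals cover counting error only, and the libraries compared were picked by their shares.

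**Figure D2:**
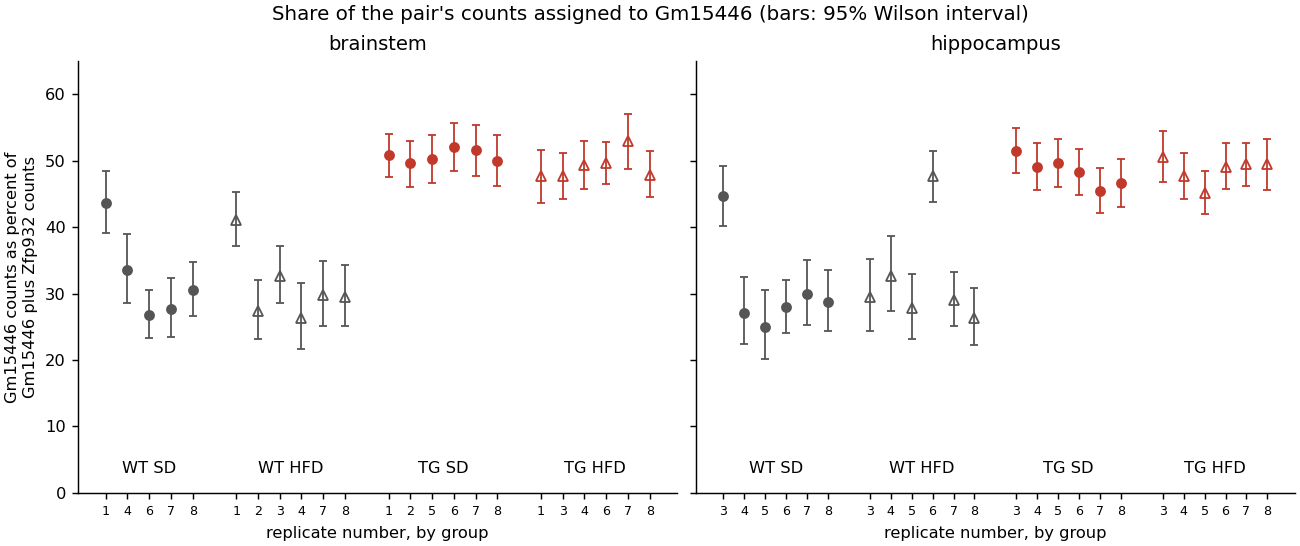
Counts of Gm15446 as a percentage of the counts of Gm15446 plus Zfp932 (vertical axis) in each library, by group and replicate number (horizontal axis), with 95% Wilson intervals. Grey is WT and red TG; 2 WT libraries in each region, at 41.1% and 43.7% in brainstem and 44.7% and 47.7% in hippocampus, stand above the other WT libraries, which reach 33.5% at most.

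A high Zfp932 level did not always go with a high Gm15446 share. WT SD replicate 6 had the highest Zfp932 level of WT brainstem, 29.5 CPM, with a Gm15446 share of 26.8%. In hippocampus, WT HFD replicate 7 had 23.1 CPM of Zfp932 with a share of 29.0%. Within WT, the log2 levels of the pair had a Pearson r of 0.73 in brainstem (n = 11) and 0.82 in hippocampus (n = 12). Within TG, r was 0.85 and 0.43 (n = 12 each). The levels compared share their library, its depth and part of the reads.

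**Figure D3:**
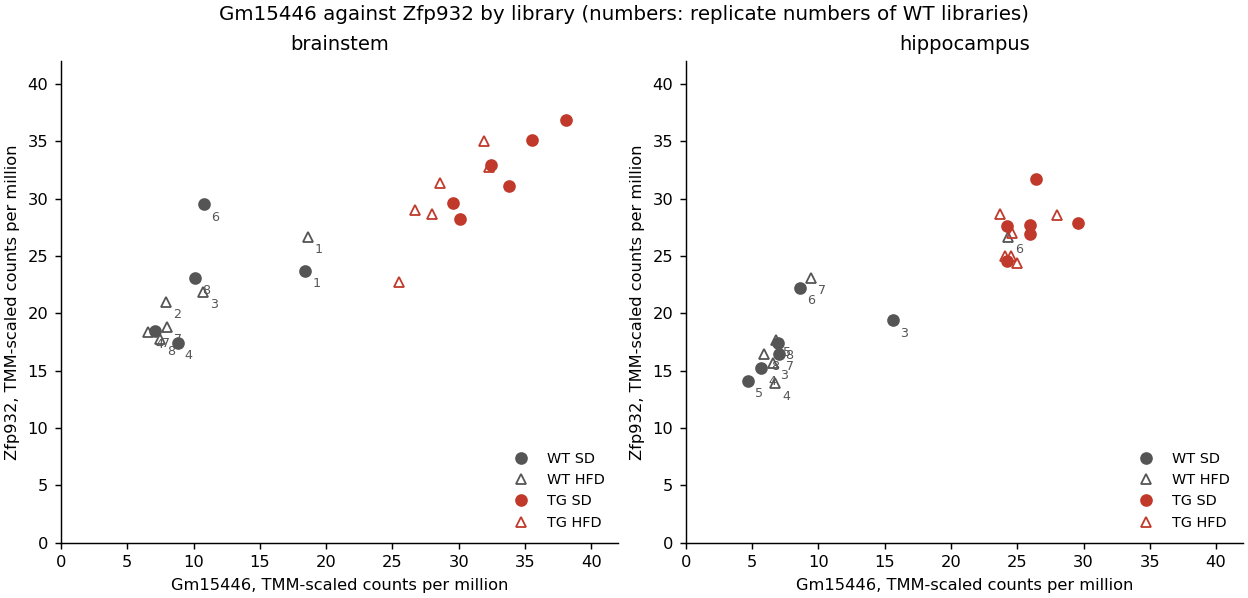
Zfp932 against Gm15446 (TMM-scaled CPM on both axes) in each library of brainstem (left) and hippocampus (right), with the replicate numbers of WT libraries printed beside their marks. WT marks are grey and TG marks red, filled for SD and open for HFD; WT HFD replicate 6 of hippocampus, at 24.3 and 26.7, lies among the TG marks.

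Nnt was close to absent in every library of both genotypes. It had 0 to 8 counts per library in WT and 0 to 5 in TG brainstem, and 1 to 7 and 0 to 6 in hippocampus. No group stood apart from another. Added over libraries, these were 31 and 28 counts in WT and TG brainstem, or 0.217 CPM (95% exact Poisson interval 0.147 to 0.308) and 0.192 CPM (0.128 to 0.277). In hippocampus, 32 and 34 counts gave 0.190 CPM (0.130 to 0.268) in WT and 0.190 CPM (0.132 to 0.266) in TG. The Poisson intervals cover counting error only and not the spread between libraries. In the 6 libraries with 0 counts, a level of up to 0.198 to 0.272 CPM, or 3 counts, is allowed.

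Per kilobase of exon, the medians of Nnt lay between 0.0231 and 0.0351 CPM, against 7.65 to 10.9 for Wdfy1. In GENCODE M21, 3339 of the 7037 exon bases of Nnt (47.4%) are also covered by a second gene model with the same symbol, ENSMUSG00000116207. The second model has no row in either table. The remaining 3698 exon bases belong to the counted model alone. Whether the low level comes from the counting or from the mice was not tested.

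Among 20 genes of mitochondrial NADPH supply and use, 20 were tested in brainstem and 19 in hippocampus. None was called in either genotype contrast, where a call needed both an adjusted p no larger than 0.05 and a log2 fold change of 0.3 or more in either direction. Over all genes, 0.142% and 0.0525% were called for TG SD/WT SD and TG HFD/WT HFD in brainstem, and 0.0904% and 0.226% in hippocampus. The lists were counted in this 1 fit only, and the 30 genes behind the last share became 515 to 634 with fewer surrogate variables, 596 with only the compared groups and 573 with a replicate block. At an unadjusted p of at most 0.05 there were 1 and 0 of them in brainstem and 3 and 2 in hippocampus, where 10.5% and 5.59% of all genes in brainstem and 9.08% and 11.3% in hippocampus had such a p on SD and HFD. Glud1, glutamate dehydrogenase, which can use either coenzyme, had log2 fold changes from 0.06 to 0.08 over the 4 contrasts. Those of Gpx4, which reduces lipid peroxides, ran from -0.08 to -0.04, and those of Sod2, the superoxide dismutase of mitochondria, from -0.04 to -0.02. The list's median was between -0.02 and 0.01, and that of all genes between -0.005 and 0.006.

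Wdfy1 differed little between the genotypes. In brainstem WT SD it was at 68.7, 70.8, 66.8, 73.3 and 66.7 CPM, and in WT HFD from 61.5 to 69.9 (median 66.1), against 68.3 to 80.1 in TG SD (median 70.6) and 64.2 to 79.5 in TG HFD (median 70.5). In hippocampus it ran from 45.9 to 51.7 CPM in WT SD (median 50.2), from 43.0 to 50.7 in WT HFD (median 47.6), from 45.1 to 55.4 in TG SD (median 50.3) and from 44.1 to 53.1 in TG HFD (median 49.1). All groups of a region overlapped. The log2 fold changes, TG over WT, were 0.06 (95% interval -0.04 to 0.15) and 0.04 (-0.08 to 0.16) in brainstem, and 0.00 (-0.10 to 0.10) and -0.04 (-0.16 to 0.09) in hippocampus. The CV of Wdfy1 was between 4.71% and 7.05% in each genotype of each region.

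Of 22 genes for FYVE proteins and endosomal Toll-like receptor signalling, listed beside Wdfy1, 19 were tested in each region. None was called in a genotype, diet or interaction contrast, where 0% to 0.226% of all genes were called. At an unadjusted p of at most 0.05, the list had 2 and 2 genes in the genotype contrasts of brainstem and 2 and 6 in those of hippocampus. Of all genes, 10.5%, 5.59%, 9.08% and 11.3% had such a p, the last for the 6 of 19. Wdfy3, which links protein aggregates to autophagy, had log2 fold changes from -0.18 to 0.02, and Eea1, the tether of early endosomes, from 0.01 to 0.06. For the 21 genes of the repression machinery used by KRAB zinc finger proteins, 17 were tested in each region and none was called. At an unadjusted p of at most 0.05 there were 1 and 1 in brainstem and 0 and 2 in hippocampus, beside 10.5%, 5.59%, 9.08% and 11.3% of all genes. Trim28, the corepressor that KRAB domains bind, had log2 fold changes from -0.05 to 0.03, and Cbx5, heterochromatin protein 1 alpha, from -0.04 to 0.05.

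None of the 3 testable genes passed the test for diet in either genotype. For HFD over SD in WT, Gm15446 differed by -0.23 on the log2 scale (SE 0.209, adjusted p = 0.962 by edgeR's quasi-likelihood test) in brainstem and 0.24 (SE 0.271, adjusted p = 0.928) in hippocampus, with 0% of all genes called in both (724 and 850 genes had an unadjusted p of at most 0.05). Both signs turned in fits that left out 1 library and estimated the surrogate variables anew. Without WT SD replicate 1 the brainstem value was 0.16, and without WT HFD replicate 6 the hippocampus value was -0.29. In TG, Gm15446 had -0.04 (SE 0.156) and -0.07 (SE 0.178), with 0.0075% and 0% of all genes called. Adjusted p values of Gm15446, Zfp932 and Wdfy1 were from 0.836 to 0.980 over both diet contrasts and both regions. The 95% intervals still allowed differences of -0.64 to 0.18 in WT brainstem and of -0.29 to 0.77 in WT hippocampus for Gm15446.

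The interaction, the genotype difference on HFD minus that on SD, was 0.19 (SE 0.276, adjusted p = 0.993) for Gm15446 in brainstem, where 0.0075% of genes were called, and -0.31 (SE 0.330, adjusted p = 0.949) in hippocampus, where 0% were. For Zfp932 it was 0.12 (SE 0.128, adjusted p = 0.993) and -0.11 (SE 0.145, adjusted p = 0.962), and for Wdfy1 -0.02 and -0.04. None of these passed, and for Gm15446 the hippocampus interval ran from -0.96 to 0.34.

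Between regions, Wdfy1 was lower in hippocampus than in brainstem, at -0.47 on the log2 scale (SE 0.0281, adjusted p = 1.28e-20 by edgeR), where 60.2% of all genes were called. Every hippocampus library lay below the lowest brainstem library, at 55.4 and 61.5 CPM. These CPM values were scaled within each region separately, and only the fit scaled all libraries together. Zfp932 differed by -0.19 (SE 0.062, adjusted p = 0.0054), below the 0.3 required for a call, and Gm15446 one of -0.21 (SE 0.12, adjusted p = 0.102). Without WT HFD replicate 6 of hippocampus, the value of Gm15446 was -0.33 and passed. The region fit took all 47 libraries as independent, although both regions may come from the same mice, which the labels do not state. Its p values do not account for that.

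None of the 34 tested genes around the 4 genes was called by edgeR in a genotype contrast of either region. Over all genes, 0.142% and 0.0525% were called in brainstem and 0.0904% and 0.226% in hippocampus, on SD and HFD. At such shares, 0 calls among 34 genes says little about the neighbours. Of the 34, 5 and 0 in brainstem and 6 and 7 in hippocampus had an unadjusted p of at most 0.05, again on SD and HFD. So did 10.5%, 5.59%, 9.08% and 11.3% of all genes. Within 1000000 bases of Gm15446 or Zfp932, 15 genes were tested in brainstem and 14 in hippocampus, with log2 fold changes from -0.22 to 0.19 over both regions and diets. Of these, 3 and 0 had an unadjusted p of at most 0.05 in brainstem (SD and HFD), and 0 and 3 in hippocampus. The nearest were Plcxd1 at 103 kb from Zfp932, which passed the filter only in brainstem, the zinc finger gene Zfp605 at 113 kb and the checkpoint ubiquitin ligase gene Chfr at 139 kb. When genes with a total count of at least 10 were also admitted, none near Gm15446 or Zfp932 was called.

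Around Nnt, the tested genes nearest to it were Paip1, 4833420G17Rik and Tmem267. Tmem267, which encodes a transmembrane protein and lies 152 kb from Nnt, had a log2 fold change in brainstem of 0.75 on SD (SE 0.189, adjusted p = 0.0996 by edgeR's quasi-likelihood test) and, on HFD, of 0.19 (SE 0.223, adjusted p = 0.971). In hippocampus it had 0.47 on SD and 0.29 on HFD (adjusted p = 0.54 and 0.76 by the same test). Its levels overlapped between genotypes, from 9.16 to 31.6 CPM in WT and from 17.4 to 43.5 in TG brainstem, and from 13.6 to 67.9 and 32.4 to 66.4 in hippocampus. Its CV was 35.4% in WT and 26.1% in TG brainstem, and 44.9% and 22.2% in hippocampus. Tmem267 was called in brainstem on SD without WT SD replicate 4, and when genes with a total count of at least 10 were admitted. Further from Nnt, in hippocampus, Ccl28 had 0.79 and 0.47 on SD and HFD (adjusted p = 0.227 and 0.594 by edgeR). Hmgcs1 had -0.12 and -0.27 there (adjusted p = 0.404 and 0.0554). Mrpl44, Serpine2 and Gm5529, the nearest to Wdfy1, had log2 fold changes from -0.20 to 0.05.

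**Figure D4:**
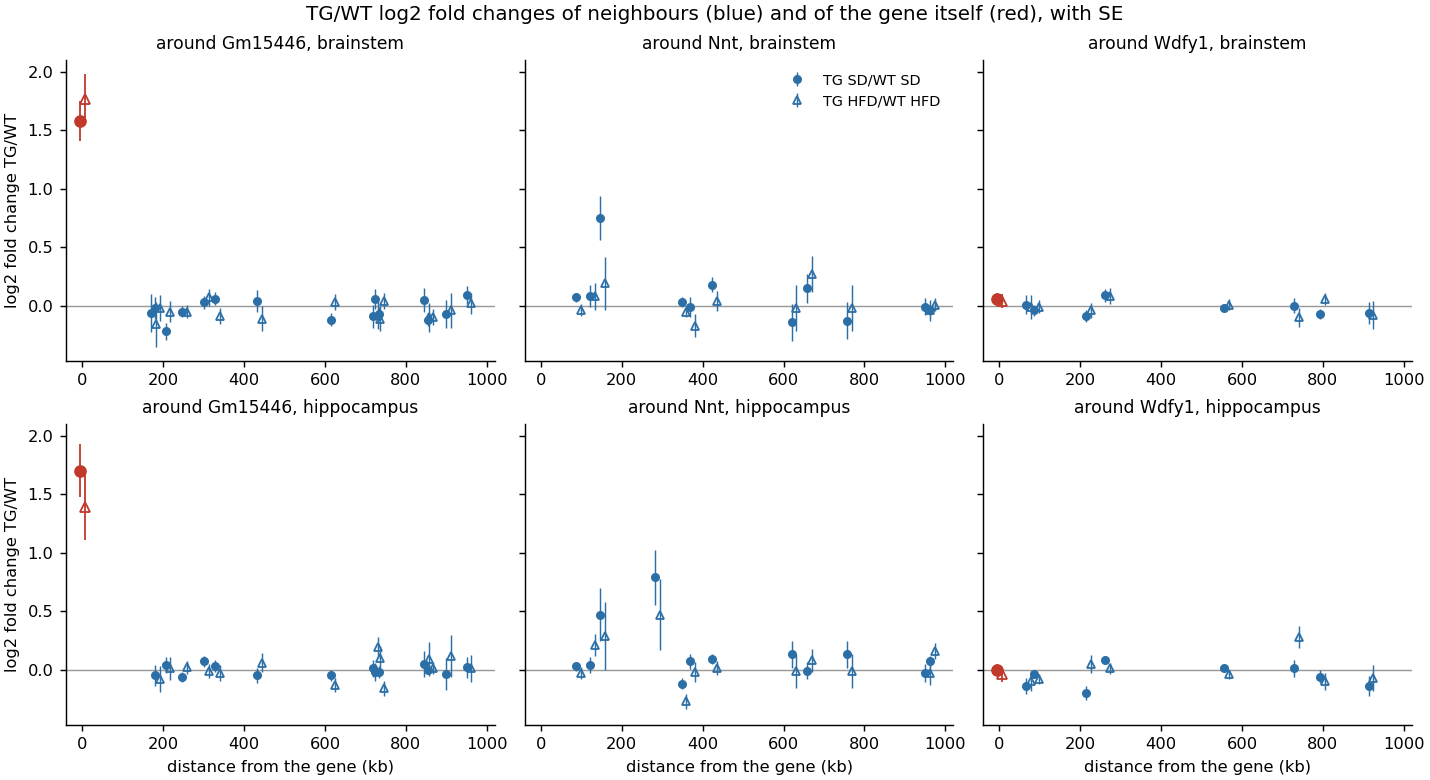
Log2 fold change TG/WT (vertical axis, with SE) of the tested genes within 1000000 bases of Gm15446, Nnt and Wdfy1 against their distance in kb, in brainstem (top) and hippocampus (bottom). Red marks are the gene itself and blue marks its neighbours (Nnt was not tested, and Zfp932 is not drawn), circles SD and triangles HFD; Gm15446, at 1.39 to 1.77, stands above its neighbours, which lie between -0.22 and 0.19.

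Gene by gene over the libraries of a region, the levels most like those of Gm15446 included Zfp932 (Pearson r of 0.90 in brainstem, n = 23, and 0.93 in hippocampus, n = 24) and Thy1 (0.91 and 0.88), out of 12619 genes compared. For Zfp932 they included Gm15446 and Thy1 (0.78 and 0.81). For Wdfy1 they were Tubb4b, a beta-tubulin (-0.64 and -0.67), Ahcyl2 (0.71 and 0.63) and Gps1 (-0.63 and -0.67). These values hold the step between genotypes, and all share the library and its scaling. Thy1, whose promoter drives the transgene, was at 479 to 598 CPM in WT libraries and at 6470 to 9230 in TG libraries. Whether its counts in TG come from the transgene was not tested.

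Of 13 genes listed as carriers of known C57BL/6 substrain variants, Nnt and Wdfy1 among them, 7 were tested between genotypes in brainstem and 8 in hippocampus, without Nnt and Wdfy1. Gabra2 was the 1 that was called, in both brainstem contrasts, where 0.142% and 0.0525% of all genes were called. The list was chosen with earlier results of these data known, and in them Gabra2 already differed between genotypes in brainstem. The calls and p values of Gabra2 below are therefore a description and not a new test. Gabra2 encodes the alpha 2 subunit of the GABA-A receptor, and an intronic deletion in C57BL/6J lowers its level. Its log2 fold changes in brainstem were 0.70 for SD (SE 0.119, adjusted p = 0.00265 by edgeR) and 0.74 for HFD (adjusted p = 0.0251), and in hippocampus 0.47 (adjusted p = 0.247) and 0.60 (adjusted p = 0.18). The size of these values held better than the calls. On SD in brainstem the call was lost with 0 or 1 surrogate variable (adjusted p = 0.0839 and 0.106), with only the compared groups (0.55) and with a replicate block (0.178), at log2 fold changes of 0.65 to 0.78. On HFD in brainstem it was lost with DESeq2 (adjusted p = 0.098), with the block (0.0682) and without any 1 of 7 libraries (TG SD 1, TG HFD 1, 7 and 8, WT SD 4, WT HFD 2 and 8). On HFD in hippocampus a call was gained with 0, 1 or 2 surrogate variables (adjusted p = 0.049, 0.0305 and 0.0194), a total count of at least 10 (0.0294), only the compared groups (0.00184) and the block (0.028), and without WT SD replicate 7 (0.045). It too had a wider spread in WT than in TG, with CVs of 24.4% and 7.05% in brainstem and 33.6% and 5.21% in hippocampus. Of the 4 WT libraries with a high Gm15446 share, WT HFD replicate 6 (269 CPM) and WT SD replicate 3 (270 CPM) of hippocampus were also inside the TG range of Gabra2, from 246 to 299 CPM, as was WT SD replicate 5 (256 CPM), whose Gm15446 share was the lowest of all at 25.0%. In brainstem, WT HFD replicate 1 (85.9 CPM) was among the higher WT libraries, while WT SD replicate 1 (58.9 CPM) was at the WT median. Ide, Cyfip2, Entpd4 and Entpd4b were tested in both regions and not called.

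The labels give replicate numbers but do not say whether a number marks the same mouse in both regions. There were 17 pairs of libraries with the same group and number, 8 WT and 9 TG. Over 12619 genes, the deviations from the group means of such a pair had a median correlation of 0.125, against -0.024 for other pairs of the same group, and over the 200 most variable genes 0.045 against 0.01. For Gabra2, the deviations of log2 CPM from the group means in brainstem and hippocampus had r = 0.92 over the 8 WT pairs and -0.10 over the 9 TG pairs. For Zfp932, r of the same deviations was 0.53 and -0.82. Replicate 6 of WT SD had the highest Gabra2 level of these WT pairs in both regions, at 88.6 and 242 CPM, and for Zfp932 the highest in brainstem (29.5 CPM) but not in hippocampus (22.2 CPM, against 23.1 in WT HFD replicate 7). For Gm15446, r of the deviations was 0.17 in WT and -0.35 in TG. None of the 4 WT libraries with a high share has a partner of the same number in the other region. No pair therefore shows whether the high share recurs in the same mouse.

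**Figure D5:**
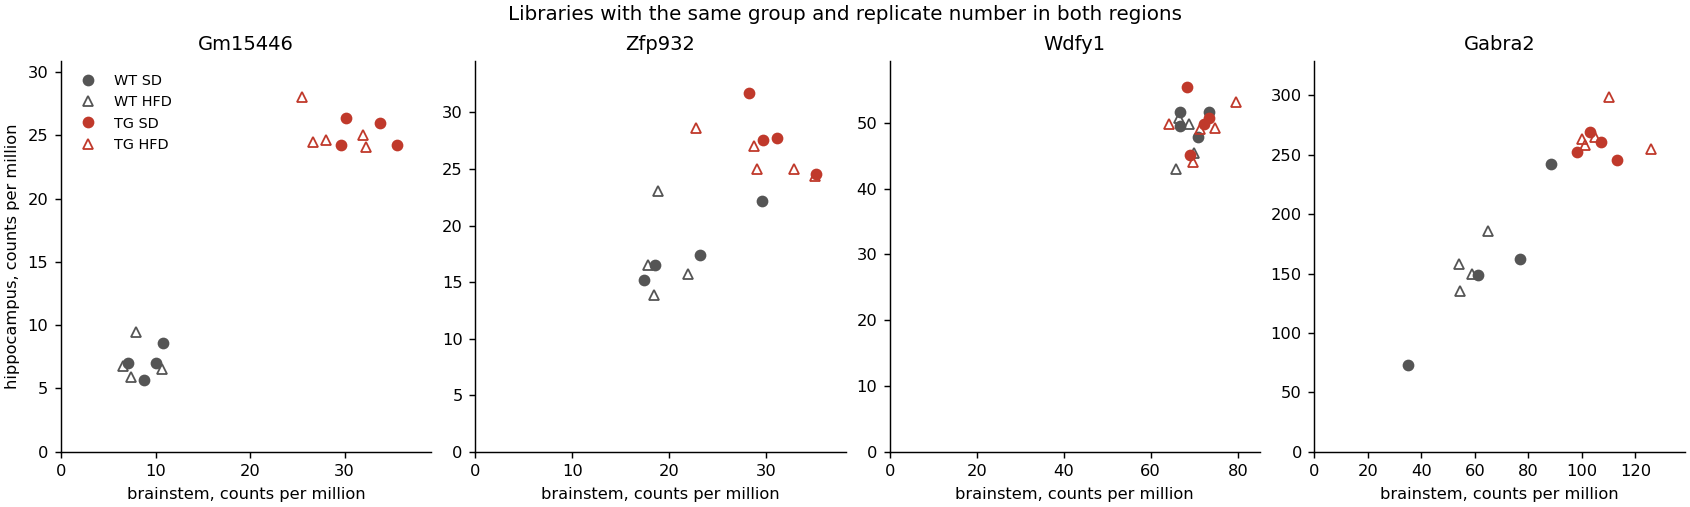
Hippocampus against brainstem level (TMM-scaled CPM) of Gm15446, Zfp932, Wdfy1 and Gabra2 for the 17 pairs of libraries with the same group and replicate number. WT is grey and TG red, filled for SD and open for HFD. The WT marks of Gabra2 lie along a rising line, and those of Gm15446 form 1 cluster. For deviations of log2 CPM from the group means, r over the 8 WT pairs was 0.92 for Gabra2 and 0.17 for Gm15446.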

How the data were processed

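The authors deposited raw counts per gene and library for each region, from reads aligned with STAR (2.7.9a, per the submitters' processing notes) to the Ensembl mouse genome with the transgene's sequence added. Results for 1 item are not reported here. The counting tool and its strand setting are not given in the sources used here. 1 brainstem WT SD sample had been left out by the authors for RNA integrity. Library totals, given in the report, set the precision of low counts.

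The filter kept genes whose counts averaged 50 or more, 13340 in brainstem and 13272 in hippocampus. Counts were scaled by TMM and fitted with edgeR (4.0.16, quasi-likelihood test) with 4 groups and 4 surrogate variables per region (sva 3.50.0, number by num.sv), and p-values were adjusted by Benjamini-Hochberg over all tested genes. The region contrast used all 47 libraries, 8 groups and no surrogate variables over 13458 genes. A call needed an adjusted p no larger than 0.05 and a log2 fold change of 0.3 or more in either direction. The scripts were tested on simulated counts. Nothing in the labels says that libraries of a group are more than separate samples, so p-values measure the spread between these samples.

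Named genes were the 4 genes, the 3 genes most like each, neighbours within 1000000 bases that were called with the 3 nearest tested, and called or highly counted genes of 4 lists. Genes and lists were chosen with earlier results of these data known. Replicate numbers were checked within regions (10 of 26 same-numbered pairs in brainstem and 15 of 36 in hippocampus had a correlation over 0.1) and were not taken as pairs. Neighbour distances and sequences come from GENCODE M21 and RefSeq on GRCm38, another build than that of the counts, matched by identifier. Alternatives were other numbers of surrogate variables, other filters, DESeq2 (1.42.0), a fit of only the compared groups, a replicate block and leaving out each library. Within a region, fits without 1 library estimated the 4 surrogate variables anew.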

Additional observations from a re-analysis of the deposited data

Results flagged for a closer look

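In 4 of 32 groups of libraries, the highest level stood apart from the rest of its group by Dixon's ratio at the 95% level. The nominal rate of such flags is about 1 group in 20. It does not apply here as a test, because earlier results of these data chose the genes and the groups share libraries and reads. The flags are a description. All were for Gm15446. They were the 18.6 CPM of WT HFD replicate 1 in brainstem, the 15.6 CPM of WT SD replicate 3 in hippocampus, the 24.3 CPM of WT HFD replicate 6 in hippocampus and the 28.0 CPM of TG HFD replicate 7 in hippocampus. The first 3 are WT libraries that also had a high Gm15446 share of the pair's counts. WT SD replicate 1 of brainstem, at 18.4 CPM and also with a high share, was not flagged (ratio 0.672, limit 0.71). The flagged TG group spanned only 23.7 to 28.0 CPM.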

How the results depend on the processing

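The genotype values of Gm15446, Zfp932 and Wdfy1 were recomputed under the same alternatives, as a choice made after seeing the data. In all 108 cases the shift was smaller than the pooled SD of log2 CPM within the groups compared. Some shifts were larger than the SE of the fold change. Gm15446 for TG HFD/WT HFD in brainstem went from 1.77 (SE 0.213) to 1.51 with 1 surrogate variable. No diet or interaction value of these genes was called under any alternative or without any library. Depth limits Nnt, which at 0 to 8 counts per library could not be tested. The number of surrogate variables, the filter, the tool and the libraries fitted moved the counts of called genes, and the cause was not tested.

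In brainstem, TG SD/WT SD gave 19 genes, against 4 with 0 and 4 with 1 surrogate variable, 29 with a total count of at least 10, and 6 with only the compared groups. TG HFD/WT HFD gave 7, against 25 with 2 surrogate variables and 4 with only the compared groups. WT HFD/WT SD gave 0, against 1 with DESeq2. TG HFD/TG SD gave 1, against 8 with 2 surrogate variables, 9 with a total count of at least 10, and 0 with 0 or 1 surrogate variable, filterByExpr, DESeq2 or only the compared groups. The interaction gave 1, against 3 with a total count of at least 10 and 0 with 0, 1 or 2 surrogate variables or filterByExpr. In hippocampus, TG SD/WT SD gave 12, against 6 with only the compared groups. TG HFD/WT HFD gave 30, against 515, 614 and 634 with 0, 1 and 2 surrogate variables, 78 with a total count of at least 10 and 596 with only the compared groups. WT HFD/WT SD gave 0, against 23 and 30 with 1 and 2 surrogate variables, 4 with filterByExpr, 7 with a total count of at least 10 and 3 with DESeq2. TG HFD/TG SD gave 0, against 6 with a total count of at least 10 and 2 with DESeq2, and the interaction 0, against 4 and 1. Between regions, 8105 genes were called, against 15161 with a total count of at least 10. Of the neighbours, 1 (Tmem267) was called in brainstem TG SD/WT SD with a total count of at least 10 and 1 (Ccl28) in hippocampus TG HFD/WT HFD with 2 surrogate variables.

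Wdfy1 for TG HFD/WT HFD in hippocampus, -0.0372 and not tested, changed sign within its error, to 0.0472, 0.0454 and 0.0469 with 0, 1 and 2 surrogate variables, 0.00823 with a total count of at least 10, 0.0468 with only the compared groups and 0.0482 with the replicate block. Among the tested diet and interaction values, those that changed sign, none of them called, were those of Gm15446 for TG HFD/TG SD in brainstem with DESeq2 (0.000998) and for the brainstem interaction with 0 and 1 surrogate variable (-0.062 and -0.0548). Zfp932 for TG HFD/TG SD in brainstem was -0.11, -0.0248 and -0.0031 with 0, 1 and 2 surrogate variables, -0.00743 with a total count of at least 10 and -0.11 with only the compared groups, and in hippocampus 0.000513 with a total count of at least 10. The interaction of Wdfy1 was 0.0376, 0.0377 and 0.00711 with 0, 1 and 2 surrogate variables and 0.0251 with a total count of at least 10 in brainstem, and 0.0113, 0.014 and 0.0155 with 0, 1 and 2 in hippocampus. Of the 3 genes most like each, ranking by Spearman's rho shared 1, 1 and 1 for Gm15446, Zfp932 and Wdfy1, and ranking by residuals within groups 1, 1 and 0.

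Same-numbered libraries of a region deviated together only weakly. Their median correlation was 0.039 in brainstem and 0.065 in hippocampus, against -0.026 and -0.041 for other pairs. The highest values of same-numbered pairs were 0.404 and 0.41. The numbers were not taken as pairs. With the replicate number as a block, 3 genes were called for TG SD/WT SD, 0 for TG HFD/TG SD and 0 for the interaction in brainstem, and 573 for TG HFD/WT HFD in hippocampus, where 1 neighbour (Ccl28) was called. In the block fit, Zfp932 was -0.0735 for TG HFD/TG SD in brainstem, and the interaction was -0.0194 for Gm15446 in brainstem and 0.0128 for Wdfy1 in hippocampus.

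Leaving out 1 library at a time gave 15 to 22, 3 to 12, 0 to 2, 0 to 4 and 0 to 2 called genes in brainstem (TG SD/WT SD, TG HFD/WT HFD, WT diet, TG diet, interaction), 7 to 19, 13 to 63, 0 to 6, 0 to 3 and 0 to 3 in hippocampus, and 8043 to 8142 between regions. It gave 0 to 1 neighbours for TG SD/WT SD in brainstem (Tmem267, without WT SD replicate 4) and for TG HFD/WT HFD in hippocampus (Hmgcs1, without WT SD replicate 4 or WT HFD replicate 8). Gm15446 ran from -0.41 to 0.16 and from -0.14 to 0.0279 for the WT and TG diet contrasts of brainstem, from -0.29 to 0.75 for that of WT hippocampus, from -0.22 to 0.34 and -0.77 to 0.21 for the interactions, and from -0.33 to -0.14 between regions. Zfp932 ran from -0.15 to 0.0254, -0.0411 to 0.0798, -0.0293 to 0.18 and -0.0479 to 0.0147 for the 4 diet contrasts, and from -0.000148 to 0.19 and -0.20 to 0.0122 for the interactions. The brainstem interaction of Wdfy1 ran from -0.0571 to 0.0221.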
